A study of Mus musculus with 18 samples.

Results

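Intraflagellar transport (IFT) and BBSome genes encode the machinery that carries proteins into, along and out of cilia. They were taken here as all gene symbols of the deposited values that name a numbered Ift or Bbs gene, a heterotrimeric or homodimeric kinesin-2 subunit (Kif3a, Kif3b, Kif3c, Kifap3, Kif17), a dynein-2 subunit (Dync2h1, Dync2li1), Traf3ip1, Cluap1, or the small GTPases Arl6 and Arl13b. This rule found 33 of 30172 genes, and it used no measured value. By role, 13 members were IFT-B subunits, 3 IFT-A subunits, 6 BBSome subunits, 2 chaperonin-like Bbs genes, 2 ciliary GTPases, 5 kinesin-2 subunits and 2 dynein-2 subunits.

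The study asked how hyperhomocysteinemia of the dam affects ovaries of the daughters, and sequenced RNA of whole ovaries from wild-type C57BL/6J females 3, 7 or 21 days after birth (Pd3, Pd7, Pd21). Dams of the F1-HHcy groups ate a diet with 3% methionine and dams of the F1-Control groups ate normal chow, by the labels from 4 weeks before mating until the end of lactation. The study's methods give a different feeding time before mating and a control diet of stated methionine content, and which applied to these dams is not known. The daughters themselves were not treated. Each of the 6 groups of diet and day had 3 libraries (18 in all), and the sources used here leave unsaid if the RNA of each came from a single pup or a pool. Pd3 and Pd7 were labelled batch 1 and Pd21 batch 2, so each comparison of diets lay within 1 batch, whereas age and batch cannot be told apart between Pd21 and the earlier days. The fragments on genes, recovered from the deposited values, numbered 33630741 to 39399434 per library. At that depth, all 33 members were above 0 in all 18 libraries.

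Some libraries stood apart from their groups. By the mean correlation of log2(FPKM + 1) over 14607 genes, replicate 3 of F1-HHcy at Pd3 was closer to the F1-Control libraries of that day (0.966) than to its own group (0.953). Replicates 1 and 2 of F1-HHcy at Pd3 had their nearest library in F1-Control at Pd7 (r = 0.9898 and 0.9881). In turn, each of the 3 F1-Control libraries of Pd7 was nearest to replicate 1 or 2 of F1-HHcy at Pd3 (r = 0.9881, 0.9783 and 0.9898), above the mean correlation with its own group (0.976, 0.973 and 0.977). At Pd21, replicate 2 of F1-Control was nearest to replicate 3 of F1-HHcy (r = 0.9805), and replicate 1 of F1-HHcy was nearest to a Pd7 library of its own diet (r = 0.9788). These correlations are across genes within pairs of libraries, and genes are not independent replicates.

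Cilia are built and kept up by trains of IFT-B and IFT-A particles. Kinesin-2 pulls the trains towards the tip and dynein-2 brings them back, while the BBSome, an adaptor placed on membranes by Arl6, carries signalling receptors out of the cilium. In the ovary, most somatic cells bear a single primary cilium, through which Hedgehog signals pass, and the adjoining oviduct is lined by multiciliated cells whose many motile cilia are built with the same transport machinery.

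Expression values are in FPKM, fragments scaled by the length of the gene and by the fragments of the library, which allow levels of different genes to be set beside each other. Over the 18 libraries, the members' mean levels ranged from 1.44 to 54.4 FPKM with a median of 10.1 FPKM. Of the 33 members, 6 had a mean above 20 FPKM, 20 had a mean of 5 to 20 FPKM and 7 had a mean under 5 FPKM. Ift27, a Rab-like GTPase of IFT-B that is needed for the BBSome to leave cilia, had the highest mean (54.4 FPKM, from 26.8 to 114). It was followed by Ift43, a small IFT-A subunit (49.6 FPKM), and Ift20, an IFT-B subunit that also works at the Golgi (46.2 FPKM). The libraries of these 3 genes overlapped, from 36 to 82.9 FPKM for Ift43 and from 36.9 to 64.3 FPKM for Ift20, so their order does not exceed the spread between libraries. It also changed by group: Ift27 had the highest group mean under both diets at Pd3 and in F1-Control at Pd7, Ift20 in F1-HHcy at Pd7 (46 FPKM, against 29.2 FPKM for Ift27), and Ift43 under both diets at Pd21 (67.2 and 53.9 FPKM, against 39 and 28.5 FPKM for Ift27). The 3 lowest means belonged to Bbs12 (1.44 FPKM), which like Bbs10 (3.35 FPKM) is a chaperonin-like protein that helps the BBSome assemble, to Bbs1 (1.93 FPKM), the BBSome subunit that binds Arl6, and to Kif3c (2.31 FPKM), an alternative partner of Kif3a. Bbs12 in replicate 3 of F1-HHcy at Pd3 was the single value of a member under 1 FPKM (0.782).

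Levels within a complex were uneven. The heavy chain gene Dync2h1 averaged 3.12 FPKM, whereas Dync2li1, the light intermediate chain, averaged 25 FPKM. Within heterotrimeric kinesin-2, Kif3a (17.1 FPKM) and the accessory subunit Kifap3 (15.8 FPKM) were above the other motor subunit Kif3b (5.55 FPKM). Among the BBSome subunits, Bbs4 averaged 20.4 FPKM, against 11 FPKM for Bbs2, 6.86 FPKM for Bbs7, 6.66 FPKM for Bbs9, 4.58 FPKM for Bbs5 and 1.93 FPKM for Bbs1. Bbs4 shares 194 exon bases with Adpgk and Kif3c shares 2617 with 1110002L01Rik, each on the opposite strand, and whether fragments were counted by strand is not given in the sources used here. In the ovary as a whole, fewer cells of a type and less RNA per cell cannot be told apart, and this holds for every result below.

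Diets were compared on log2(FPKM + 1) with limma for each day, after a filter that kept genes reaching 1 FPKM in 3 or more of the 6 libraries, which all 33 members passed on each day. A gene was called higher or lower in F1-HHcy when its log2 fold change exceeded 0.58 in size and its unadjusted p was under 0.05, and adjusted p-values are by Benjamini-Hochberg over all genes tested that day. The added 1 understates the fold change of genes near 1 FPKM. For 3 libraries against 3, the smallest 2-sided p of an exact permutation test is 0.1.

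**Figure D1:**
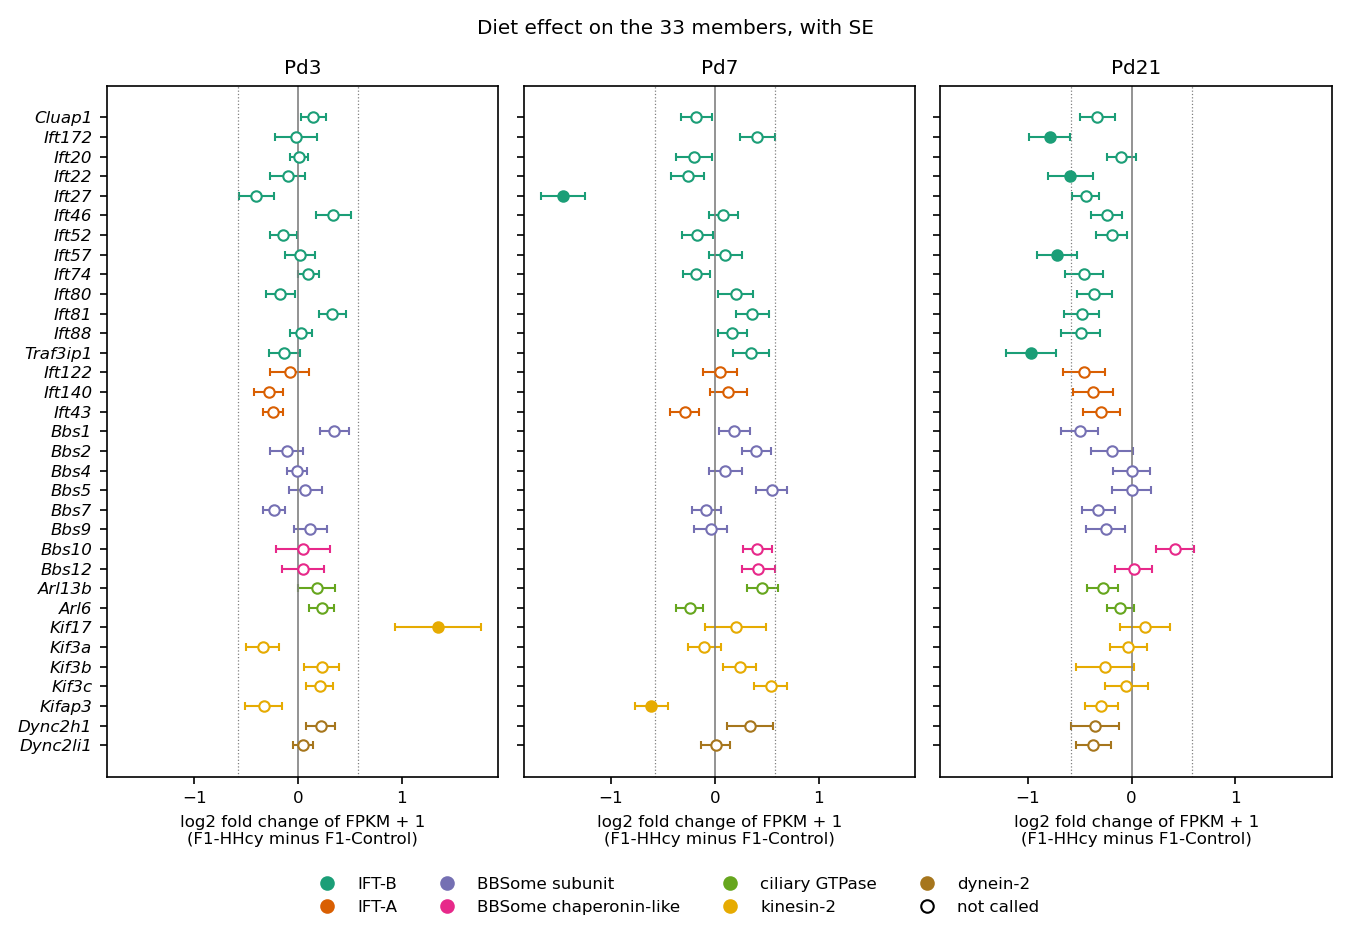
Log2 fold change of FPKM + 1 (F1-HHcy minus F1-Control, x axis) for each of the 33 members (y axis, coloured by role) at Pd3, Pd7 and Pd21, with bars of 1 SE from limma. Filled points are called members and dotted lines mark 0.58 in size. At Pd21, 29 of 33 points lie below 0, including all 13 IFT-B members.

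At Pd21, most members had log2 fold changes below 0, few passed the thresholds, and the members called by limma were subunits of IFT-B. Of the 33 members, 4 were called lower (12.1%, against 5.06% of 13350 genes tested) and 0 were called higher (against 0.0824% of genes tested). The 4 were Traf3ip1, Ift172, Ift57 and Ift22, of the 13 IFT-B members. Differences between roles were not tested. The median log2 fold change of the members was -0.29, against -0.01 over all genes tested, and 29 of 33 members (87.9%) were below 0, against 52.5% of all genes tested. In 14 members (42.4%), each F1-HHcy library was lower than each F1-Control library, as in 8.61% of genes tested. The opposite, each F1-HHcy library higher, was seen in 1 member, Bbs10, and in 1.92% of genes tested. By limma, 10 members had an unadjusted p under 0.05 (against 914 of 13350 genes tested), and of the 10, 9 were below 0 and 1 above. An adjusted p under 0.05 was reached by 0 members and by 2.23% of genes tested. With limma-voom on recovered fragments, 10 members below 0 and 0 above had an unadjusted p under 0.05, and 0 had an adjusted one. That fit called 5 members lower (the 4 above and Bbs1, a BBSome subunit) and 0 higher, counts given without a share over all genes.

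Promoter sequences of the called members, except Kifap3, are shown because RFX transcription factors are known to bind an X-box motif in promoters of many cilia genes. The motif was searched as paired arms, GTTNCC and GGNAAC with 0 to 3 bases between them (its own reverse complement), and as a single arm, GTTGCC or its reverse complement GGCAAC, in RefSeq windows from 250 bases before to 50 bases after the start of each gene (GRCm38.p6). Of the 33 members, 29 had a window. Each window below is printed 5′ to 3′ on the strand of its gene, and capitals mark the matches.
Traf3ip1 (chr1:91494418-91494717, + strand): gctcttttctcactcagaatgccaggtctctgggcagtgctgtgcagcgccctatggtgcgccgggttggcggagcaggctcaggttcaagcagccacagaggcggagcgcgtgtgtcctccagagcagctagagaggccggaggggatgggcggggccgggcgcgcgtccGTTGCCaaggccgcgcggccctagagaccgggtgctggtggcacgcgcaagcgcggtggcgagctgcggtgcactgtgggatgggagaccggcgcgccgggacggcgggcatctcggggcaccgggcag
Ift172 (chr5:31291065-31291364, - strand): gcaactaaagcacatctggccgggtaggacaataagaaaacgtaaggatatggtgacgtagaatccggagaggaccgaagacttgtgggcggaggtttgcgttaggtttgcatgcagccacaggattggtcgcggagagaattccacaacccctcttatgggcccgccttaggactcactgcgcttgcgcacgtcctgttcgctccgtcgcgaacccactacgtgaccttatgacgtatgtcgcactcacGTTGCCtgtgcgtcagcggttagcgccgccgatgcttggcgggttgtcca
Ift57 (chr16:49699044-49699343, + strand): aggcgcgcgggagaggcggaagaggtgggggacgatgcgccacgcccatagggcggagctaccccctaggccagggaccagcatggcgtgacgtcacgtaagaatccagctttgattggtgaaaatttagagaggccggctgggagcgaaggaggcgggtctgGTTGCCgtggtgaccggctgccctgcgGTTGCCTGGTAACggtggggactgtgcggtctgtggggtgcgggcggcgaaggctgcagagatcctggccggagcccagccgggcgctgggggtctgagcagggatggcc
Ift22 (chr5:136907900-136908199, + strand): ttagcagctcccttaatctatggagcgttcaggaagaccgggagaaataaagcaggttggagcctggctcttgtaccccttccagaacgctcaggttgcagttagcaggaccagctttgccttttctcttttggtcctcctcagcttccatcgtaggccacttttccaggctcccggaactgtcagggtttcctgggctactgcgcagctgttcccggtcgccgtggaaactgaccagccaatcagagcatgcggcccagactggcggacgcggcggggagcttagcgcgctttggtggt
The window of Ift57 held both a single arm and the paired arms, the windows of Traf3ip1 and Ift172 held 1 single arm each, and that of Ift22 held neither. Among the 29 members with a window, 14 (48.3%) held a single arm and 2 (6.9%), Ift57 and Bbs7, held the paired arms. Over all 27025 genes with a window, the shares were 14.1% and 0.936%. Other IFT, BBSome and dynein-2 genes, described further on, had 31.2% and 18.8% of 16, below the members' share for the single arm and above it for the pair, a difference that was not tested. The transition zone genes had 58.8% and 23.5% of 17, and the multiciliated cell markers 57.1% and 7.14% of 28. A single arm can be part of the paired arms, and a match describes letters, not binding.

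**Figure D2:**
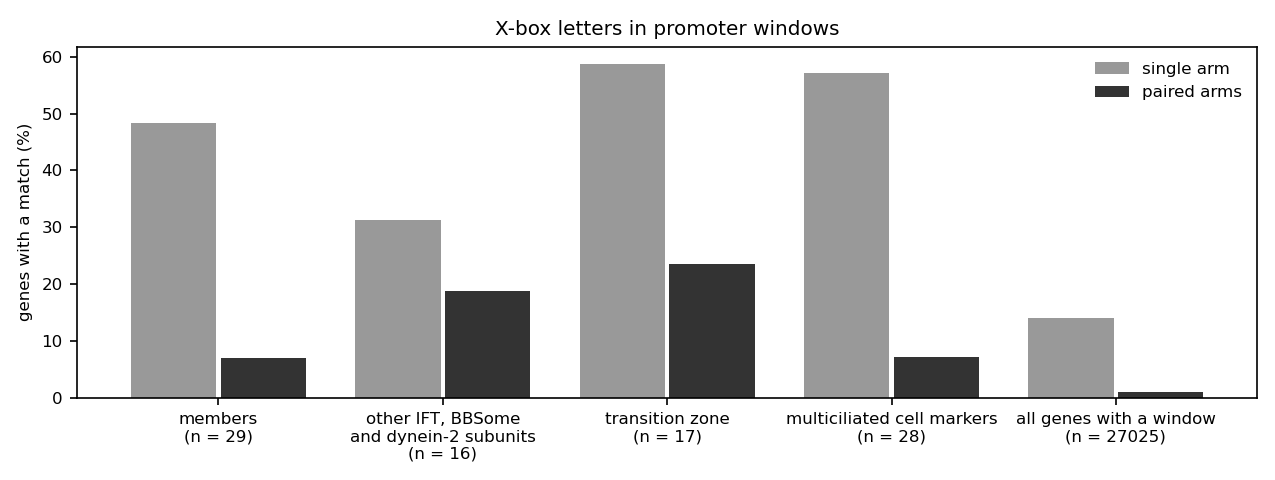
Percent of genes (y axis) whose promoter window holds a single arm (grey) or the paired arms (black) of the X-box letters, for the members (n = 29), other IFT, BBSome and dynein-2 genes (n = 16), the transition zone genes (n = 17), the multiciliated cell markers (n = 28) and all genes with a window (n = 27025). Single arms were found in 48.3% of the members and in 14.1% of all genes.

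Traf3ip1, also known as Ift54, encodes an IFT-B subunit that binds tubulin. It measured 12.6, 6.16 and 8.93 FPKM in replicates 1, 2 and 3 of F1-Control and 4.68, 3.79 and 3.7 FPKM in those of F1-HHcy at Pd21. The groups did not overlap, and replicate 1 of F1-Control was the highest library. On the log2 scale it fell by 0.97 (SE 0.24, limma adjusted p = 0.115). Ift172, the largest IFT-B subunit, which is needed for trains to turn around at the tip, measured 13.4, 9.14 and 11.5 FPKM in F1-Control and 7.7, 5.68 and 5.07 FPKM in F1-HHcy. Its groups did not overlap either, and it fell by 0.79 on the log2 scale (SE 0.20, limma adjusted p = 0.125). Both genes were called lower in each refit that left out 1 library of that day.

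Ift57 encodes a peripheral IFT-B subunit that binds Ift20. It measured 15.5, 9.51 and 12.4 FPKM in F1-Control and 6.5, 7.09 and 7.53 FPKM in F1-HHcy, without overlap. It fell by 0.72 on the log2 scale (SE 0.19, limma adjusted p = 0.146). Without replicate 1 of F1-Control the log2 fold change was -0.56, below the size threshold. Ift22, a Rab-like GTPase of the IFT-B core, measured 20.4, 11.1 and 16 FPKM in F1-Control and 8.79, 11.1 and 9.85 FPKM in F1-HHcy. Replicate 2 was near 11.1 FPKM under both diets, and the groups did not overlap only by a gap too small to show in the digits printed. The log2 fold change was -0.59 (SE 0.22, limma adjusted p = 0.478). That call was lost without replicate 1 (-0.40) or 3 (-0.57) of F1-Control, without replicate 1 (-0.52) or 3 (-0.59, with an unadjusted p above 0.05) of F1-HHcy, and after median-ratio scaling (-0.54).

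The remaining IFT-B members were also below 0 at Pd21. The 13 log2 fold changes ran from -0.97 to -0.10 with a median of -0.46. By limma, 8 of 13 had an unadjusted p under 0.05, against 914 of 13350 genes tested in either direction. In 10 of 13 (76.9%), Ift22 with its small gap among them, each F1-HHcy library was lower than each F1-Control library, against 8.61% of genes tested. Ift27 measured 40.3, 36.9 and 39.8 FPKM in F1-Control and 27.4, 26.8 and 31.3 FPKM in F1-HHcy. Its groups were apart by more than their spread, but the log2 fold change of -0.44 (SE 0.13, limma adjusted p = 0.232) was under the size threshold. Ift81, which with Ift74 forms the tubulin-binding module of the train, measured 13.8, 9.42 and 12.7 FPKM in F1-Control and 8.9, 7.75 and 8.02 FPKM in F1-HHcy. Again the groups did not overlap (log2 fold change -0.48, SE 0.17, limma adjusted p = 0.451), and without replicate 2 of F1-Control the change was called (-0.63). Ift20 was the IFT-B member nearest to 0 (log2 fold change -0.10, SE 0.14), with 44.5, 47.3 and 39.3 FPKM in F1-Control and 36.9, 45.1 and 40.2 FPKM in F1-HHcy, and its groups overlapped.

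**Figure D3:**
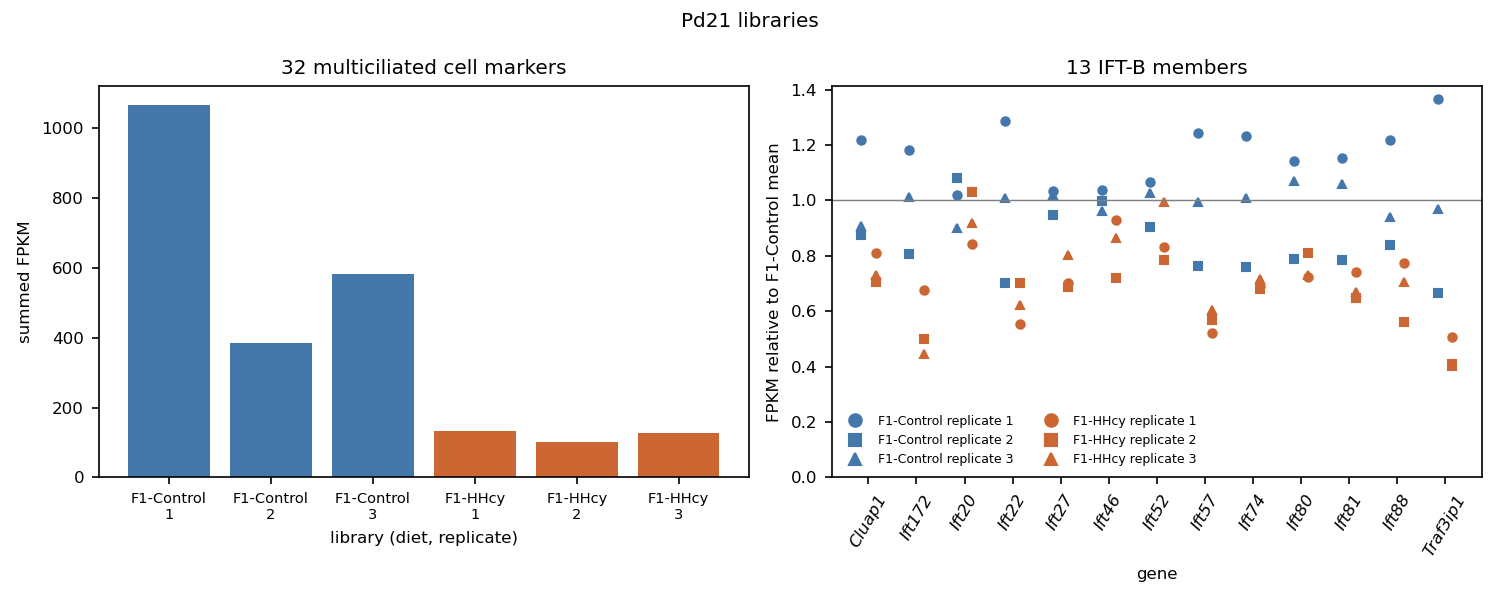
Pd21 libraries. Left, summed FPKM of the 32 multiciliated cell markers (bars, y axis) in each library, from 385 to 1067 in F1-Control and from 101 to 132 in F1-HHcy. Right, FPKM of each of the 13 IFT-B members (x axis) in each library divided by the mean of the F1-Control libraries, where replicate 1 of F1-Control is the highest F1-Control library for 12 genes.

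The other roles at Pd21 gave 0 called members by limma. The 3 IFT-A members had log2 fold changes from -0.46 to -0.29, with overlap between the groups in each. Ift43 measured 82.9, 66 and 52.8 FPKM in F1-Control and 52.2, 51.2 and 58.2 FPKM in F1-HHcy (log2 fold change -0.29, SE 0.18, limma adjusted p = 1), and replicate 3 of F1-HHcy exceeded replicate 3 of F1-Control. The 2 dynein-2 members had -0.37 (Dync2li1) and -0.35 (Dync2h1). The 6 BBSome subunits had a median of -0.22, and Bbs1 was the lowest at 3.21, 2.42 and 3.32 FPKM in F1-Control against 1.84, 2.07 and 1.53 FPKM in F1-HHcy. Bbs1 did not overlap between the groups (log2 fold change -0.50, SE 0.18, limma adjusted p = 0.434), and it was called without replicate 2 of F1-Control (-0.60), with a pseudocount of 0.1 (-0.68) and by limma-voom (-0.72). The kinesin-2 members centred near 0 with a median of -0.05, from -0.29 for Kifap3 to 0.13 for Kif17. Of the 4 members above 0 (Bbs10, Kif17, Bbs12 and, at 0.00, Bbs5), Bbs10 had the highest log2 fold change, at 3.63, 4.37 and 2.78 FPKM in F1-Control and 4.87, 4.71 and 5.78 FPKM in F1-HHcy (log2 fold change 0.42, SE 0.18, limma adjusted p = 0.715). Its gene was singled out after its values were seen.

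Single libraries moved the number of members called lower at Pd21. It was 4 with all libraries, 2 without replicate 1 of F1-Control (Ift172 and Traf3ip1) and 9 without replicate 2 of F1-Control, the library nearest to F1-HHcy, which added Bbs1, Ift122, Ift74, Ift81 and Ift88. Without replicate 1 of F1-HHcy, which also stood apart, it was 4 with Ift122 in place of Ift22. In refits without 1 library the median log2 fold change ran from -0.40 to -0.24. Over all settings tried, 27 to 32 members were below 0.

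Markers of multiciliated cells moved with this result at Pd21. Of 32 such markers in the deposited values, 29 were tested and 28 were called lower, with a median log2 fold change of -2.45. Most of the 29, such as Foxj1 and Sntn, reached 1 FPKM only in F1-Control and were tested only because that group was high. The count and median therefore depend on the filter, while the sums that follow are over all 32 markers. Their summed level was 1067, 385 and 582 FPKM in replicates 1, 2 and 3 of F1-Control and 132, 101 and 128 FPKM in those of F1-HHcy. Ccno, the single tested marker not called (98.2, 69.9 and 75.9 FPKM and 98.9, 74.8 and 95.8 FPKM), made up most of the F1-HHcy sums. The other 31 markers summed to 968, 315 and 506 FPKM and 33.2, 26.5 and 31.8 FPKM. The most abundant marker was Tppp3, a tubulin-binding protein, in F1-Control (98.1 ± 53.4 FPKM, SD, n = 3) and Ccno, a cyclin-like regulator of centriole amplification, in F1-HHcy (89.8 ± 13.1 FPKM). The master regulator Foxj1 measured 99.1, 20.4 and 49.7 FPKM in F1-Control and 0.371, 0.441 and 0.248 FPKM in F1-HHcy. No marker was at 0 in all 3 F1-HHcy libraries, and Sntn, a protein of the tips of motile cilia, was at 0 in replicate 2 (0.157, 0 and 0.123 FPKM). Replicate 1 of F1-Control was the highest of its group for 31 of 32 markers and for 12 of 13 IFT-B members, and replicate 2 was the lowest for 30 of 32 markers and 11 of 13 IFT-B members. Replicate 1 was also the highest for 3 of 3 IFT-A members and 5 of 6 BBSome subunits, but for 2 of 5 kinesin-2 members. It was the highest for 23 of all 33 members, and for 8 of 17 other IFT, BBSome and dynein-2 genes, described further on. Within F1-HHcy, replicate 1 was the highest for 20 of 32 markers and 6 of 13 IFT-B members, and replicate 2 was the lowest for 22 of 32 and 7 of 13. The part of these cells in the lower IFT-B levels was not tested.

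Most markers listed for secretory cells of the oviduct were also lower at Pd21. Of 10 markers, 9 were called lower, all but Wt1. Some of the 9, such as Cldn7 and Pax8, reached 1 FPKM only in F1-Control and were tested only because that group was high. The sum over all 10 was 494, 227 and 637 FPKM in F1-Control, highest in replicate 3, and 197, 73.9 and 129 FPKM in F1-HHcy. Ovgp1, the oviduct-specific glycoprotein, led in F1-Control (206 ± 164 FPKM, SD, n = 3) at 216, 37.5 and 365 FPKM, against 2.1, 0.37 and 1.12 FPKM in F1-HHcy, where Wt1 was the most abundant (80.3 ± 44.1 FPKM). Wt1 measured 82.1, 74.4 and 81.8 FPKM in F1-Control (log2 fold change -0.12). The list may not be particular to the oviduct. In F1-Control at Pd3, Wt1, Krt7 and Epcam averaged 152, 60.6 and 56.4 FPKM, and Ovgp1 averaged 1.56 FPKM. No marker of this list was at 0 in all libraries of a group, and its part in the result was not tested. Oocyte markers summed to 1439 to 2190 FPKM with 0 of 11 called at Pd21, and granulosa markers summed to 1139 to 2440 FPKM with 0 of 10 called. Theca and stroma markers summed to 1106 to 2082 FPKM with 1 of 10 called lower. By limma, 0 oocyte and 0 granulosa markers had an unadjusted p under 0.05. The sum over the 13 IFT-B members was 252, 199 and 221 FPKM in F1-Control and 164, 166 and 172 FPKM in F1-HHcy.

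At Pd7, 2 members were called lower (6.06%, against 7.35% of 13299 genes tested) and 0 were called higher by limma (against 9.06% of genes tested). By limma, 10 of 33 members had an unadjusted p under 0.05, 8 of them above 0, against 4189 of 13299 genes tested in either direction. The limma-voom fit called 3 members higher, a count given without a share over all genes. The share called lower was near that of all genes. The median of the members was 0.10, against -0.00 over all genes tested. An adjusted p under 0.05 was reached by 3 members (9.09%), Ift27, Kifap3 and Bbs5, and by 11.9% of genes tested, and by none of these 3 when no filter was applied. Each F1-HHcy library was higher than each F1-Control library in 9 members and lower in 5, against 19.5% of genes tested in each direction. The number called higher was 1 without replicate 3 of F1-Control or without replicate 1, 2 or 3 of F1-HHcy, and the number called lower was 1 without replicate 1 of F1-Control or replicate 2 of F1-HHcy.

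Ift27 was called lower at Pd7 in F1-HHcy. At Pd7 it measured 80.1, 114 and 60.3 FPKM in F1-Control and 30.7, 29.6 and 27.4 FPKM in F1-HHcy. The 3 F1-HHcy libraries were close together and all lay far below the lowest F1-Control library. It fell by 1.46 on the log2 scale (SE 0.21, limma adjusted p = 0.00456, and 0.0589 without a filter), a 2.74-fold difference. Its promoter window holds 1 single arm, in capitals.
Ift27 (chr15:78174032-78174331, - strand): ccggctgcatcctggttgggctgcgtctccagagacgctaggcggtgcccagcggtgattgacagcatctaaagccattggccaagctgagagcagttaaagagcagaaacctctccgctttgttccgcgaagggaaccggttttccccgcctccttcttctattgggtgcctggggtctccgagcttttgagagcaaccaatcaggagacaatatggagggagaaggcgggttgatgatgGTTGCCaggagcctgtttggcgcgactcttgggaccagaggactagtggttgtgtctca
The other 12 IFT-B members had log2 fold changes of at most 0.41 in size at Pd7, with Ift172 at the top (9.66, 6.35 and 9.72 FPKM in F1-Control and 10.9, 12.2 and 11.6 FPKM in F1-HHcy, log2 fold change 0.41, limma adjusted p = 0.14).

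Kifap3, the subunit that joins the kinesin-2 motors to their cargo, was the other member called lower at Pd7. It measured 20.4, 17.9 and 14.4 FPKM in F1-Control and 11, 10.2 and 12.1 FPKM in F1-HHcy. The groups did not overlap, and it fell by 0.61 on the log2 scale (SE 0.16, limma adjusted p = 0.0372). Without replicate 1 of F1-Control (-0.50) or replicate 2 of F1-HHcy (-0.56) its size was under the threshold. Its adjusted p was 0.1 without a filter and from 0.0643 to 0.142 in 5 of 6 refits without 1 library. Its motor partners did not pass the test: Kif3a, whose groups overlapped, had a log2 fold change of -0.10 (limma adjusted p = 0.682), and Kif3b, whose groups did not, had 0.24 (adjusted p = 0.321). The promoter window of Kifap3, not printed here, held neither a single arm nor the paired arms.

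Bbs5, a BBSome subunit that binds phosphoinositides, measured 4.03, 4.12 and 3.88 FPKM in F1-Control and 7.52, 5.93 and 5.7 FPKM in F1-HHcy at Pd7. All F1-HHcy libraries lay above all F1-Control libraries. The log2 fold change was 0.55 (SE 0.15, limma adjusted p = 0.0451), just under the size threshold. It passed that threshold without replicate 2 (0.59, adjusted p = 0.123) or 3 (0.62, adjusted p = 0.0655) of F1-HHcy, with a pseudocount of 0.1 (0.65, adjusted p = 0.0459) and by limma-voom (0.66, adjusted p = 0.0622). The adjusted p was 0.108 without a filter, 0.0558 with a replicate block and above 0.05 in all 6 refits without 1 library, up to 0.225 without replicate 1 of F1-HHcy (0.44). The chaperonin-like Bbs10 and Bbs12 had 0.41 and 0.42, the ciliary GTPase Arl13b had 0.46 and Kif3c had 0.54, each without overlap and each under the size threshold.

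Oocyte markers changed in both directions at Pd7. Of 11 markers tested, 7 were called lower and 2 higher, and their sum was 1424, 2295 and 1738 FPKM in F1-Control and 1125, 953 and 1444 FPKM in F1-HHcy. The most abundant was Zp2, a protein of the zona pellucida, under both diets (692 ± 186 FPKM in F1-Control and 304 ± 54.4 FPKM in F1-HHcy, SD, n = 3). Figla, a transcription factor of early oocytes, measured 50.9, 78.6 and 31.1 FPKM in F1-Control and 11.5, 9.9 and 9.55 FPKM in F1-HHcy. The 2 called higher were Bmp15, a growth factor of growing oocytes (log2 fold change 1.82, limma adjusted p = 0.003), and Oosp1, an oocyte-secreted protein (0.90, adjusted p = 0.0119), while Gdf9, another oocyte growth factor, was not called (0.24), and no marker was at 0 in all libraries of a group. Granulosa markers (6 of 10 called higher) summed to 327, 375 and 697 FPKM in F1-Control and 770, 745 and 1283 FPKM in F1-HHcy, led by Inha, an inhibin subunit, under both diets. Theca and stroma markers (6 of 10 called higher and 1 lower) summed to 1100, 1141 and 1187 FPKM in F1-Control, led by Dcn, and 1936, 2043 and 1628 FPKM in F1-HHcy, led by Hsd3b1, a steroidogenic enzyme. Of 8 oviduct secretory markers tested, 3 were called lower, the epithelial genes Krt7 (-1.54) and Epcam (-1.57) and the transcription factor Pax8 (-1.04), and 1 higher, Ovgp1. The oviductal glycoprotein gene Ovgp1 measured 0.899, 0.795 and 1.03 FPKM in F1-Control and 12.1, 1.91 and 1.28 FPKM in F1-HHcy, so that replicate 1 stood far above the others (1.22, SE 0.52). That list summed to 253, 221 and 184 FPKM in F1-Control and 158, 157 and 120 FPKM in F1-HHcy, led by Wt1 under both diets, with no marker at 0 in all libraries of a group. The part of these cells in the lower Ift27 and Kifap3 was not tested. The multiciliated cell markers summed to 62.8, 83.9 and 79 FPKM in F1-Control and 70, 57.1 and 87.5 FPKM in F1-HHcy at Pd7, with 9 tested and 1 called, Tppp3, which was higher. Without Ccno the sums were 22.1, 26 and 29.2 FPKM and 35.6, 31.5 and 28.3 FPKM.

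At Pd3, 1 member was called higher (3.03%, against 5% of 13277 genes tested), and 0 were called lower by limma or limma-voom (against 4.74% of genes tested; 1 member below 0 had an unadjusted p under 0.05 with each tool). These shares do not exceed those of all genes. The median of the members was 0.03 (from -0.01 to 0.07 without 1 library), against -0.03 over all genes tested. None of the 33 had an adjusted p under 0.05 with limma or limma-voom on the libraries of Pd3, against 3.07% of genes tested with limma. An unadjusted limma p under 0.05 was reached by 4 members and by 2974 of 13277 genes tested. Each F1-HHcy library was higher than each F1-Control library in 7 members (21.2%, against 11.8% of genes tested) and lower in 3 (9.09%, against 16.1%).

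The called member was Kif17, a homodimeric kinesin-2. At Pd3 it measured 1.12, 1.57 and 2.42 FPKM in F1-Control and 9.72, 7.51 and 2.42 FPKM in F1-HHcy. Replicates 1 and 2 of F1-HHcy were above every F1-Control library of that day. These 2 libraries were nearest to F1-Control at Pd7 (r = 0.9898 and 0.9881), where Kif17 measured 4.63, 8.48 and 12.3 FPKM. Replicate 3, closer to F1-Control of its day than to its own group, was at the level of the highest F1-Control library. The log2 fold change was 1.35 (SE 0.41, limma adjusted p = 0.116), and without replicate 3 of F1-HHcy it was 1.85 (SE 0.22, adjusted p = 0.00181, the lowest over its alternatives, which reached 0.368 without replicate 1 of F1-Control). In 1 model of all 18 libraries its adjusted p was 0.0408. Kif17 shares 74 exon bases on the same strand with Sh2d5, which stayed between 0.45 and 1.27 FPKM in all libraries. Its promoter window holds 1 single arm, in capitals.
Kif17 (chr4:138262001-138262300, + strand): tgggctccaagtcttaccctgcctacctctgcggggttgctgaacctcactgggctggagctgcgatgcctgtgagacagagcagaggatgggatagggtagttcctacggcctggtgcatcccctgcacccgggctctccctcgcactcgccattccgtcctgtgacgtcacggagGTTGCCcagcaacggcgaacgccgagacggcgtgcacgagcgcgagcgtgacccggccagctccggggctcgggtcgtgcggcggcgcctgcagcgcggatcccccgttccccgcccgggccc

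Oocyte markers did not move one way at Pd3. Bmp15 measured 1.17, 0.707 and 1.8 FPKM in F1-Control and 34, 20.1 and 3.7 FPKM in F1-HHcy, and Oosp1 measured 3.09, 3.61 and 7.01 FPKM and 125, 89.7 and 11 FPKM. Within F1-HHcy both were lowest in replicate 3, like Kif17, and both were picked after their values were seen. Dazl, a germ cell RNA-binding protein, was called lower at 49.1, 63.4 and 42.6 FPKM in F1-Control and 13.7, 20.5 and 36.8 FPKM in F1-HHcy, and so was Sohlh1, a transcription factor of early oocytes, at 92.5, 89.8 and 96.5 FPKM and 18.7, 42.7 and 67.9 FPKM. Figla was not called, at 66, 68.3 and 55.3 FPKM and 20.8, 43.7 and 60.7 FPKM. Dazl, Sohlh1 and Figla were highest in replicate 3 of F1-HHcy. Over the list, 6 of 11 markers were called higher and 2 lower, and the sum was 717, 794 and 954 FPKM in F1-Control and 1436, 1762 and 1196 FPKM in F1-HHcy, led by Zp2 under both diets (250 ± 63.1 and 553 ± 153 FPKM, SD, n = 3), with no marker at 0 in all libraries of a group. Granulosa markers (5 of 8 tested called higher, summing to 244, 247 and 250 FPKM in F1-Control and 721, 466 and 320 FPKM in F1-HHcy) and theca and stroma markers (5 of 7 called higher, summing to 443, 549 and 555 FPKM and 1433, 1124 and 679 FPKM) were also measured, with Kitl and Inha the most abundant granulosa markers of F1-Control and F1-HHcy and Dcn leading the theca and stroma markers of both. The multiciliated cell markers summed to 78.3, 72.4 and 81.1 FPKM and 75.1, 73.4 and 92.7 FPKM, with 0 of 9 called and 0 at an unadjusted limma p under 0.05, and Sntn was at 0 in all F1-Control libraries. Without Ccno, the most abundant, the other 31 summed to 23.4, 25.9 and 29.1 FPKM and 29.4, 25.6 and 38.6 FPKM. The part of these cells in the Kif17 level was not tested.

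Bbs1 and Ift81 had the next smallest p among the members at Pd3. Bbs1 measured from 1.22 to 1.54 FPKM in F1-Control and 1.79, 2.08 and 2.2 FPKM in F1-HHcy (log2 fold change 0.35, SE 0.14, limma adjusted p = 0.194). Ift81 measured 10.2, 8.56 and 11.7 FPKM in F1-Control and 12.9, 12.5 and 13.3 FPKM in F1-HHcy (log2 fold change 0.33, SE 0.13, limma adjusted p = 0.192). In both genes all F1-HHcy libraries were above all F1-Control libraries, and neither passed the size threshold. Without replicate 3 of F1-HHcy, the log2 fold change was 0.31 for both, with unadjusted limma p-values above 0.05. Ift27 measured 87.5, 78.2 and 80.2 FPKM in F1-Control and 46.6, 67.4 and 74.8 FPKM in F1-HHcy, also without overlap, and its log2 fold change of -0.40 (SE 0.17, limma adjusted p = 0.227) did not pass the p threshold. Without replicate 3 of F1-HHcy it was -0.54 (adjusted p = 0.0427), still under the size threshold, and without replicate 1 it was -0.20 (adjusted p = 0.472).

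**Figure D4:**
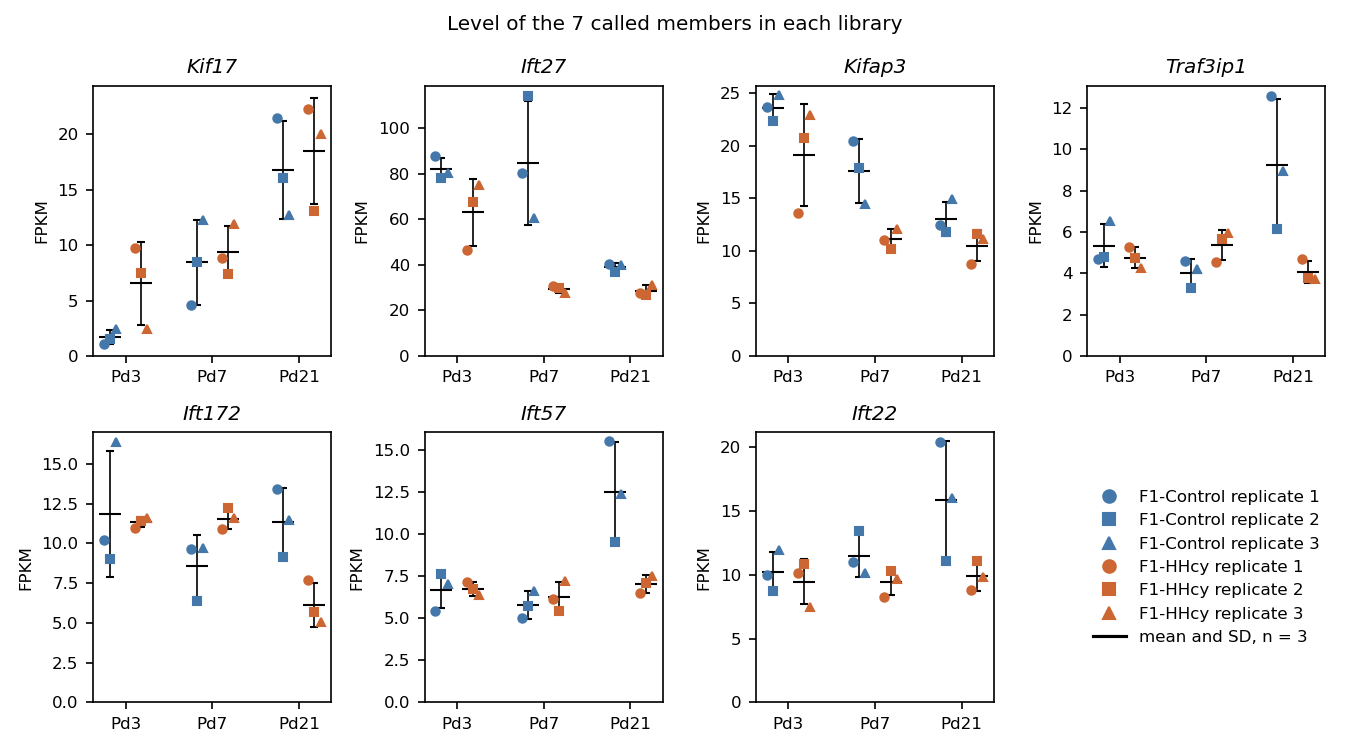
FPKM (y axes) of the 7 members called on at least 1 day, in each library of F1-Control (blue) and F1-HHcy (orange) at Pd3, Pd7 and Pd21, with symbols for replicates and black bars for the mean and SD (n = 3). For Ift27, the 3 F1-HHcy libraries at Pd7 sit between 27.4 and 30.7 FPKM, below the 60.3 to 114 FPKM of F1-Control.

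With age, Pd7 was compared with Pd3 within each diet, since both days lay in batch 1. In F1-Control, 1 member, Kif17, was called higher at Pd7 (against 7% of 13336 genes tested) and 0 were called lower (against 7.77%). An unadjusted limma p under 0.05 was reached by 5 of 33 members, 2 of them below 0, and by 4205 of 13336 genes tested. Kif17 went from 1.12, 1.57 and 2.42 FPKM at Pd3 to 4.63, 8.48 and 12.3 FPKM at Pd7 without overlap (log2 fold change 1.75, SE 0.30, limma adjusted p = 0.00754). At Pd21 it measured 21.5, 16.1 and 12.7 FPKM, a level given without a test because of the batch. Between Pd3 and Pd7 of F1-Control, 6 of 11 oocyte markers were called higher and 2 lower, 7 of 10 granulosa markers higher and 1 lower, 4 of 7 theca and stroma markers higher, and 2 of 9 oviduct secretory markers lower. Their part in the Kif17 change was not tested. Without replicate 1 of Pd7, 1 member was called lower.

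In F1-HHcy, 1 member, Bbs10, was called higher at Pd7 than at Pd3 (against 5.73% of 13257 genes tested) and 2, Ift27 and Kifap3, were called lower (against 5.36%). Ift27 went from 46.6, 67.4 and 74.8 FPKM to 30.7, 29.6 and 27.4 FPKM without overlap (log2 fold change -1.05, SE 0.18, limma adjusted p = 0.0892). Kifap3 went from 13.6, 20.7 and 22.9 FPKM to 11, 10.2 and 12.1 FPKM, also without overlap (-0.70, SE 0.19, adjusted p = 0.115). Bbs10 went from 2.95, 2.78 and 1.03 FPKM to 4.23, 3.89 and 4.52 FPKM (0.74, SE 0.26, adjusted p = 0.156). Its low replicate 3 at Pd3 was closer to F1-Control of that day than to its own group. Replicates 1 and 2 of Pd3 were nearest to F1-Control at Pd7 (r = 0.9898 and 0.9881). Without replicate 3 of Pd3, Ift27 remained called (-0.92) while Kifap3 (-0.56) and Bbs10 (0.43) were not. Bbs10 was also not called without replicate 1 (0.74) or 3 (0.70) of Pd7, where its unadjusted p was above 0.05, and 3 members were called higher without replicate 1 of Pd3. By limma, 0 of all 13257 genes had an adjusted p under 0.05 in this comparison, whereas 3119 had an unadjusted one. Of the markers, 6 of 11 for oocytes were called lower and 1 higher, 3 of 10 for granulosa and 5 of 10 for theca and stroma higher, and 4 of 8 for oviduct secretory cells lower, and their part in these calls was not tested.

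Whether the diet effect differed between days was tested with limma in 1 model of all 18 libraries and 14607 genes. Between Pd3 and Pd7 it differed for 0 members at an adjusted p under 0.05 (against 0.411% of genes tested), with 4 members at an unadjusted one, and for 1 without replicate 1 of F1-HHcy at Pd3 or replicate 3 of F1-Control at Pd7. Between Pd3 and Pd21 it differed for 2 members (6.06%, near the 4.59% of genes tested), Bbs1 and Ift81, both above 0 at Pd3 and below 0 at Pd21. Between Pd7 and Pd21 it differed for 4 members (12.1%, against 3.89%): Traf3ip1, Ift172 and Ift81 were above 0 at Pd7 and below 0 at Pd21, while Ift27 was further below 0 at Pd7. Multiciliated cell markers had a median log2 fold change of -0.06 at Pd3 and -0.05 at Pd7 (0 and 1 of 9 called), and -2.45 at Pd21 (28 of 29 called lower). The genes tested differ between days, and most of the 29 passed the filter at Pd21 only through F1-Control, so these medians and counts are not like for like. Over the same 31 markers, without Ccno, the mean sums in F1-Control and F1-HHcy were 26.1 and 31.2 FPKM at Pd3. They were 25.7 and 31.8 FPKM at Pd7, and 596 and 30.5 FPKM at Pd21. Oviduct secretory markers, some of them tested at Pd21 only through F1-Control, went from -0.13 and -0.45 (0 of 10 and 3 of 8 called lower) to -1.51 (9 of 10). Their part in these differences was not tested. The libraries of each day enter more than 1 of these differences, and the differences with Pd21 cannot separate age from batch. For Pd3 and Pd21 the count was 0 without replicate 1 or 2 of F1-Control at Pd3, replicate 1 or 3 of F1-Control at Pd21 or replicate 3 of F1-HHcy at Pd21. It was 1 without replicate 1 or 2 of F1-HHcy at Pd3, replicate 1 or 2 of F1-HHcy at Pd7 or replicate 2 of F1-HHcy at Pd21, and 5 without replicate 2 of F1-Control at Pd21. For Pd7 and Pd21 it was 2 without replicate 1 of F1-Control at Pd3 or replicate 1 or 3 of F1-HHcy at Pd7. It was 1 without replicate 2 of either diet at Pd7, replicate 1 or 3 of F1-Control at Pd21 or replicate 2 or 3 of F1-HHcy at Pd21, and it reached 6 without replicate 3 of F1-Control at Pd7 or without replicate 2 of F1-Control or 1 of F1-HHcy at Pd21. Traf3ip1 passed in each of these refits. Without a filter the counts for Pd3 and Pd21 and for Pd7 and Pd21 were 1 and 1, and with a replicate block within each day they were 0 and 2.

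Other genes of the same complexes, or linked to them, whose symbols the rule does not take had 14 of 16 log2 fold changes below 0 at Pd21 (87.5%, against 52.5% of genes tested). These were 17 further IFT, BBSome and dynein-2 genes in the deposited values, not all of them subunits (for example Mkks, Tulp3 and Rabl2). Of them, 16 were tested each day, and 0 were called at Pd3 or Pd7 by limma (0 and 3 had an unadjusted p under 0.05). At Pd21, 2 were called lower (12.5%, against 5.06% of genes tested) and the median was -0.36 (against -0.01). Multiciliated cell markers were low in the same libraries (28 of 29 called lower, median -2.45, most of them tested only through F1-Control). Their part in these levels was not tested. Ttc30b, an IFT-B subunit, measured 11.2, 8.39 and 12.4 FPKM in F1-Control and 5.02, 5.4 and 4.37 FPKM in F1-HHcy, so that the groups were well apart (log2 fold change -0.96, SE 0.18, limma adjusted p = 0.0317). Ttc26, also of IFT-B, measured 4.36, 2.6 and 3.54 FPKM and 2.06, 2.24 and 1.58 FPKM (-0.59, SE 0.20, adjusted p = 0.376). The dynein-2 subunit genes Wdr34 (-0.46) and Tctex1d2 (-0.57) did not overlap between the diets either, and neither was called.

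The transition zone is the gate at the base of the cilium. At Pd21, 3 of 19 genes tested were called lower (Tctn3, Tmem107 and B9d1; 15.8%, against 5.06% of all genes) and the median was -0.30. Tctn3 measured 8.36, 7.66 and 9.39 FPKM in F1-Control and 5.15, 3.9 and 3.92 FPKM in F1-HHcy (log2 fold change -0.84, SE 0.17, limma adjusted p = 0.0422). At Pd7 the direction was the opposite for 3 other genes, which were called higher (15.8%, against 9.06%), among them Cc2d2a at 11.6, 5.15 and 11.4 FPKM in F1-Control and 20.6, 18.4 and 15.9 FPKM in F1-HHcy (0.96, SE 0.26, adjusted p = 0.0422) and Mks1 (0.59, adjusted p = 0.0651). At Pd3, 0 of 19 were called by limma, and 0 had an unadjusted p under 0.05. The multiciliated cell markers were lower at Pd21, as given above, and 6 of 10 granulosa and 6 of 10 theca and stroma markers were called higher at Pd7. Their part in the transition zone levels was not tested.

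Proteins of the Hedgehog pathway signal through the primary cilium. At Pd3, 5 of 9 tested genes were called higher in F1-HHcy (against 5% of all genes tested) with a median log2 fold change of 0.58, and at Pd7, 3 of 12 were called higher (against 9.06%) with a median of 0.44. On the same days, 5 of 8 and 6 of 10 granulosa markers and 5 of 7 and 6 of 10 theca and stroma markers were called higher, and their part in the Hedgehog levels was not tested. In F1-Control, 3 of 10 Hedgehog genes tested were called higher at Pd7 than at Pd3 (against 7% of all genes tested). Replicates 1 and 2 of F1-HHcy at Pd3 were nearest to F1-Control at Pd7 (r = 0.9898 and 0.9881), and the part of age was not tested. Ptch1, the Hedgehog receptor and a transcriptional target of the pathway, measured 9.55, 8.34 and 9.9 FPKM in F1-Control and 33.3, 21.3 and 18 FPKM in F1-HHcy at Pd3 (log2 fold change 1.25, SE 0.21, limma adjusted p = 0.032). At Pd7 it measured 17.4, 15 and 18.5 FPKM and 34.3, 35 and 35.7 FPKM (1.01, SE 0.13, adjusted p = 0.00336). On both days every F1-HHcy library exceeded every F1-Control library. At Pd21, 0 of 12 Hedgehog genes were called and 0 had an unadjusted p under 0.05 by limma, with a median of 0.00.

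RFX factor genes were not called on any day by limma, with 5 of 7 tested each day and 0, 2 and 1 of them at an unadjusted p under 0.05 at Pd3, Pd7 and Pd21. Rfx2 measured 5.87, 5.85 and 6.91 FPKM in F1-Control and 4.32, 3.47 and 4.28 FPKM in F1-HHcy at Pd21, without overlap (log2 fold change -0.52, SE 0.16, limma adjusted p = 0.264). Rfx3, which is known to act in ciliogenesis, stayed low, at 1.26, 1 and 1.43 FPKM and 0.952, 0.778 and 0.834 FPKM (-0.26, SE 0.17, adjusted p = 1).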

How the data were processed

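RNA of whole ovaries was sequenced from stranded poly-A libraries. The authors deposited 1 FPKM value per gene and library. The unit was read from the values, with 1 length per gene and 1 scale per library. They became whole numbers of fragments (tolerance 0.01) for all 27294 genes above 0 in at least 3 libraries, of 30172 genes listed. The submitters' notes name FastQC 0.11.9, Trimmomatic 0.39, STAR 2.7.9a, featureCounts 2.0.1, DESeq2 1.36.0 and GRCm38, with no order. Values were tested as log2(FPKM + 1) with limma 3.58.1 (variance trend) in R 4.3.3. The p-values measure only the spread between these samples. Members with values in every library were those called on any day between diets, the 3 with the smallest p on each day and the 3 most abundant, and others named were chosen after their values were seen. Members and lists were chosen with earlier results of these data known. Alternatives were another pseudocount, no filter, median-ratio scaling, limma-voom, 1 model of all libraries, a replicate block, adjusted p-values and leaving out each library. Promoter windows are RefSeq's for GRCm38.p6. Ift80, Ift81, Ift122 and Dync2li1 had none.

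Replicate numbers were tested for pairing by the correlation of residuals. Between diets, same-numbered libraries of Pd3 gave -0.12, -0.13 and -0.18, those of Pd7 gave 0.05, -0.10 and 0.09, and those of Pd21 gave -0.17, -0.13 and -0.31, so the numbers are only shared. Between Pd3 and Pd7 of F1-Control they gave 0.12, 0.24 and 0.26. With the replicate as a block, Kif17 there was 1.75 (limma adjusted p = 5.6e-05) and the numbers called were 1 higher and 0 lower.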

Additional observations from a re-analysis of the deposited data

Results flagged for a closer look

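The diet effect of 5 members differed between days by a test of the difference itself, with limma in 1 model of all 18 libraries and adjusted p under 0.05. These were 2 members from Pd3 to Pd21 (6.06%, near the 4.59% of genes tested, so no result about the members as a group) and 4 from Pd7 to Pd21 (12.1%, against 3.89%). From Pd3 to Pd21 the log2 diet effect changed by -0.85 for Bbs1 (SE 0.19, adjusted p = 0.0172) and by -0.81 for Ift81 (SE 0.21, adjusted p = 0.0377). From Pd7 to Pd21 it changed by -1.32 for Traf3ip1 (SE 0.28, adjusted p = 0.0102), by -1.21 for Ift172 (SE 0.29, adjusted p = 0.0241), by -0.83 for Ift81 (SE 0.21, adjusted p = 0.0353) and by 1.01 for Ift27 (SE 0.27, adjusted p = 0.0417). For Pd3 and Pd21 the number was 0 with a replicate block within each day, 1 without a filter and 0 to 5 without 1 library. For Pd7 and Pd21 it was 2, 1 and 1 to 6. Of the members named, only Traf3ip1 (Pd7 to Pd21) kept an adjusted p under 0.05 in each of these fits. Age and batch cannot be told apart in these differences. Multiciliated cell markers (0 of 9 called lower at Pd3, 0 of 9 at Pd7, 28 of 29 at Pd21) and oviduct secretory markers (0 of 10, 3 of 8, 9 of 10) moved in the same libraries. The genes tested differ between days. Most of the 29 multiciliated markers, and some secretory ones such as Cldn7 and Pax8, were tested at Pd21 only because F1-Control was high. Over the same 31 markers, without Ccno, the mean sums in F1-Control and F1-HHcy were 26.1 and 31.2 FPKM at Pd3. They were 25.7 and 31.8 FPKM at Pd7, and 596 and 30.5 FPKM at Pd21. The part of these cells was not tested. Groups of 3 libraries were not tested for outlying values.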

How the results depend on the processing

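The cause of each change below was not tested. Refits that leave 1 library out have fewer libraries by construction. With adjusted p-values as the criterion, 0 members were called higher at Pd3 (from 1) and 0 lower at Pd21 (from 4). With a pseudocount of 0.1, and with limma-voom, 3 members were called higher at Pd7 (from 0). Leaving out 1 library gave 0 to 1 higher and 1 to 2 lower at Pd7 with a median of 0.06 to 0.16, a median of -0.01 to 0.07 at Pd3, 2 to 9 lower at Pd21, 0 to 1 lower at Pd7 against Pd3 in F1-Control, and 0 to 3 higher and 1 to 2 lower in F1-HHcy. The members whose diet effect differed numbered 0 to 1 for Pd7 minus Pd3, 0 to 5 for Pd21 minus Pd3 and 1 to 6 for Pd21 minus Pd7. For the last 2 differences, testing without a filter gave 1 and 1, and a replicate block within each day gave 0 and 2. The block left the numbers called between diets as they were: for Pd3 1 higher and 0 lower, for Pd7 0 higher and 2 lower, for Pd21 0 higher and 4 lower. The adjusted p-values under 0.05 of Ift27, Kifap3 and Bbs5 at Pd7 were all lost without a filter. Of 598 refits for 46 results of single members, 508 kept their direction and side of the threshold, 64 no longer passed it, 8 newly passed it and 18, of 8 results, changed sign, with 0 of these 18 called. Leaving out 1 library, the log2 fold changes that changed sign ran at Pd3 from -0.05 to 0.22 for Bbs5, -0.17 to 0.22 for Ift172, -0.03 to 0.06 for Ift20, -0.20 to 0.04 for Ift22 and -0.11 to 0.10 for Ift57, at Pd7 from -0.14 to 0.49 for Kif17, and at Pd21 from -0.14 to 0.14 for Bbs5 and -0.04 to 0.35 for Kif17. Ift172 at Pd3 was 0.01 with median-ratio scaling, and Bbs5 at Pd21 was -0.00 with limma-voom.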
